A study of Mus musculus with 79 samples.

Results

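Nuclear RNA of the wild-type mouse embryonic stem cell clone G4 was compared after 24 h of retinoic acid with the same clone after 4 h and 6 h. The 6 libraries (2 replicates at each time, 6 of the 79 samples of the series) were chosen from the sample labels alone: clone G4, the 24 h time, and the pooled early times. The labels give the genotype as E14;HoxTransEwt, a clone of the E14 line that carries the intact form of an element that the series deletes in the clones E3 and H12 (E14;HoxTransEdel). All libraries compared here were treated with 1 uM retinoic acid, so the comparison is between durations of treatment and holds no untreated library. Cells grew on gelatin in serum medium with leukemia inhibitory factor (LIF); whether LIF stayed in the medium during treatment is not given in the sources used here. G4 is 1 clone, and nothing in the labels says that replicates were separate cultures, so the p-values measure only the spread between these samples, which may be technical.

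Embryonic stem cells can give rise to the lineages of the embryo, and a network of transcription factors that includes Pou5f1, Sox2 and Nanog, together with LIF and FGF signalling, keeps them from differentiating. Retinoic acid, made from vitamin A, enters cells, binds nuclear receptors of the Rar and Rxr families at response elements in DNA and switches on targets that include the Hox genes and the Cyp26 enzymes that degrade it. Hox genes lie in clusters and are known for being switched on in the order in which they lie, from the 3' end of a cluster (Hoxb1) to its 5' end (Hoxb9), and for setting position along the body axis.

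Cyp26a1 carries the textbook form of such an element directly before its start, so this stretch of its promoter is shown as the reference point for the response; it runs from chr19:37697746-37697807 on the plus strand (RefSeq, build GRCm38.p6) up to the base before the gene's start. The capitals mark a direct repeat with a 5-base spacer, on the minus strand, 32 to 16 bases before the start.
Cyp26a1: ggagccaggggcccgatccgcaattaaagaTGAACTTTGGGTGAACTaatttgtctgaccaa

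The search covered AGGTCA or AGTTCA, 5 bases of any kind, and AGGTCA or AGTTCA again, on both strands, in the RefSeq window from 250 bases before to 50 after each start. It was found in 13 of 32851 promoter windows (0.0396%), and 4 of the genes concerned were tested here: Blvrb, Cyp26a1, Ppbp and Tnfsf13b. None of these 4 passed the test between 24 h and the early times. The same 6-base sites with a 2-base spacer were found in 13 windows, whose 2 tested genes, 1810020O05Rik and Stap2, did not pass either. Cyp26a1, which encodes the main enzyme that degrades retinoic acid, stood at 206 and 91.5 CPM at 4 h, 272 and 159 at 6 h and 275 and 265 at 24 h. CPM here are reads scaled to a common library total, with TMM factors. One early library, at 6 h, lay between the 24 h libraries, so the groups overlapped, and the replicates of the early times differed widely. The log2 fold change of 24 h against the average of 4 h and 6 h was 0.59 ± 0.34 (SE; adjusted p = 0.208), against a mean level of 1.67 CPM in the untreated cells of this clone.

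Between the early times and 24 h, 4306 of 15923 genes tested (27.0%) passed at an adjusted p under 0.05 (edgeR quasi-likelihood test with Benjamini-Hochberg adjustment): 2371 rose (14.9%) and 1935 fell (12.2%). Rises were the larger changes. The median of the genes that rose was 1.04 on the log2 scale and that of the genes that fell was -0.60; 1251 genes rose at least 2-fold (7.86%) and 394 fell at least 2-fold (2.47%). Changes of more than 3 on the log2 scale were found for 71 genes that rose and 23 that fell. Over all genes tested the median change was -0.011. Both 24 h libraries lay above all 4 early ones for 3806 genes (23.9%) and below all 4 for 4063 genes (25.5%), as the plot of change against level shows for the fitted values. Leaving out a 24 h library lowered the counts most: 1604 genes rose and 845 fell without 24 h replicate 1, and 1745 rose and 947 fell without 24 h replicate 2. Without 4 h replicate 2 the numbers were 2082 and 1312, and without 6 h replicate 2 they were 2132 and 1329.

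**Figure D1:**
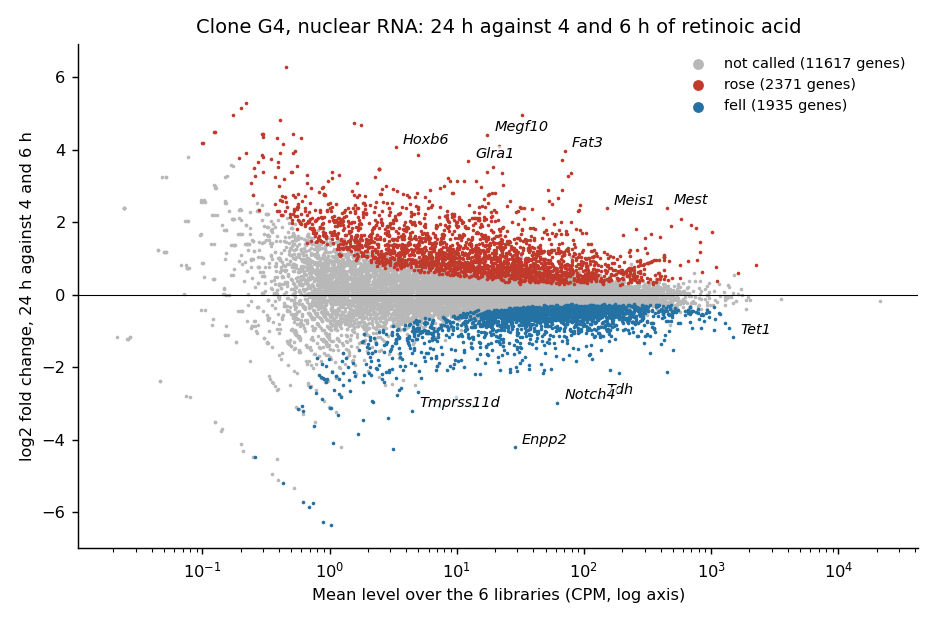
Log2 fold change of 24 h against 4 and 6 h of retinoic acid in clone G4 against the mean level over the 6 libraries (CPM, log axis), 1 point per gene tested. The 2371 genes that rose (red) reach further from 0 than the 1935 that fell (blue); grey points did not pass the test.

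Each early time was also set against 24 h alone. Against 4 h, 1991 genes rose (12.5%) and 1652 fell (10.4%), and against 6 h alone 1547 rose (9.72%) and 1198 fell (7.52%); these comparisons share the 24 h libraries. No gene passed the test between 6 h and 4 h with edgeR, DESeq2 or limma-trend, and 294 of 15923 (1.85%) had an unadjusted p under 0.05. Changes called against both early times together and against each alone were found for 1396 rises (8.77%) and 1072 falls (6.73%), and the genes with the largest changes were taken from these. The 6 libraries held 6110359 to 7748036 reads over genes, and 3 reads equalled 0.381 to 0.482 CPM. In bulk RNA, a lower value can come from fewer cells of a type or from less RNA per cell, and these cannot be told apart. Drosophila cells were added for calibration but their reads were not used here, so all values are relative to each library's own total.

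The largest rises included genes of the cell surface, of adhesion and of transcription. Megf10, a receptor with EGF-like repeats that takes part in engulfing cells, stood at 2.47 and 1.10 CPM at 4 h, 2.92 and 2.57 at 6 h and 62.2 and 32.5 at 24 h. Its log2 fold change was 4.40 ± 0.29 (adjusted p = 1.4e-12). Zbtb16, a zinc finger repressor, was measured at 4.16 and 3.46 CPM at 4 h, 3.30 and 2.57 at 6 h and 74.0 and 40.8 at 24 h, a change of 4.09 ± 0.32, adjusted p = 3.55e-10. Both genes were low and even over the early libraries and far above them in both 24 h libraries, with replicate 1 the higher. Fat3, an atypical cadherin, rose from 12.2 ± 3.36 CPM (SD, n = 4) to 188 ± 37.8 (SD, n = 2), a change of 3.96 ± 0.20 (adjusted p = 1.72e-14). Cdh6, a classical cadherin, rose from 13.5 ± 3.43 CPM (SD, n = 4) to 175 ± 31.9 (SD, n = 2), a change of 3.72 ± 0.20 (adjusted p = 1.72e-14). In both, the 24 h libraries lay far above the early ones, replicate 1 again the higher. Glra1, a subunit of the glycine receptor, rose by 3.67 ± 0.30 on the log2 scale, from 1.57 to 3.68 CPM to 28.5 and 35.3 CPM. Oprl1, the nociceptin receptor, rose by 3.47 ± 0.29, from 0.157 to 1.12 CPM to 5.62 and 6.69 CPM, and 3 further places among the 12 largest rises were taken by transcripts without a symbol that hold the same reads as Oprl1.

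Cyp1b1, a cytochrome P450 known for oxidising hydrocarbons, steroids and retinoids, was at 3.70 and 5.04 CPM at 4 h, 4.70 and 3.86 at 6 h and 69.1 and 29.6 at 24 h. Its change was 3.51 ± 0.26, adjusted p = 9.81e-11, and its 24 h libraries differed by more than 2-fold from each other although both lay above every early one. The remaining 2 of the 12 places belonged to Hoxb6 and Hoxb8, described with the other Hox genes. Just outside the 12 largest rises, with names chosen after their values were seen, were Fbn2, a fibrillin of elastic fibres, at 3.36 ± 0.18; Sfrp5, a secreted Wnt antagonist, at 3.35 ± 0.32; Col2a1, the cartilage collagen, at 3.27 ± 0.48; and Tshz2, a zinc finger gene, at 3.22 ± 0.23. The rule left out symbols that begin with Mir. Among those, the long transcript Mir99ahg, which hosts microRNAs, was noted after its values were seen: it went from 1.93 to 4.83 CPM in the early libraries to 73.8 and 108 CPM, a change of 4.94 ± 0.34.

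The largest falls led with Enpp2, which encodes autotaxin, the secreted enzyme that makes lysophosphatidic acid. Its levels were 52.7 and 30.7 CPM at 4 h, 51.6 and 32.0 at 6 h and 2.16 and 2.33 at 24 h. This was a change of -4.21 ± 0.31, adjusted p = 1.5e-11, and no 24 h library came near the early range. Tdh, the threonine dehydrogenase that mouse embryonic stem cells use to feed one-carbon metabolism, was measured at 192 and 216 CPM at 4 h, 165 and 163 at 6 h and 33.6 and 17.7 at 24 h. Its change was -2.83 ± 0.27, adjusted p = 5.89e-09. Notch4, a Notch receptor best known from endothelium, stood at 88.2 and 86.1 CPM at 4 h, 89.4 and 83.7 at 6 h and 13.3 and 8.56 at 24 h, with a change of -2.99 ± 0.28, adjusted p = 3.13e-09. For both genes the early libraries were even and the 24 h libraries far below them, replicate 2 lowest. Foxd3, a forkhead factor of pluripotent cells and neural crest, fell from 10.2 ± 1.85 CPM (SD, n = 4) to 1.20 ± 0.0653 (SD, n = 2), a change of -3.07 ± 0.40 (adjusted p = 8.23e-07). Megf11, a relative of Megf10, fell from 272 ± 78.6 CPM (SD, n = 4) to 43.1 ± 4.88 (SD, n = 2), a change of -2.65 ± 0.34 (adjusted p = 1.46e-06). Megf10 and Megf11 thus moved in opposite directions.

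Lower-level genes filled most of the other places. Themis, a gene of developing T cells, fell by 3.07 ± 0.32 on the log2 scale, and Tmprss11d, a membrane serine protease, fell by 3.20 ± 0.44. Spon1, the matrix protein F-spondin, fell by 2.82 ± 0.41, from a wide early range of 7.08 to 20.3 CPM. Grm2, a glutamate receptor, fell by 2.69 ± 0.38; Slc52a3, a riboflavin transporter, by 2.56 ± 0.45; Cdhr1, a cadherin of photoreceptors, by 2.29 ± 0.39; and Zan, zonadhesin, by 2.19 ± 0.38. In all 12 of these genes both 24 h libraries lay below all 4 early ones. In the 9 named rises both lay above all 4. The genes were picked for their change between these same libraries, so this separation follows largely from the choice. Over all genes tested 25.5% lay below in this way and 23.9% above. The plot of the largest changes by library shows each value. Edn2, an endothelin, fell by 4.26 ± 0.58 but stayed under the 5 CPM set for naming, and was picked out after its values were seen.

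**Figure D2:**
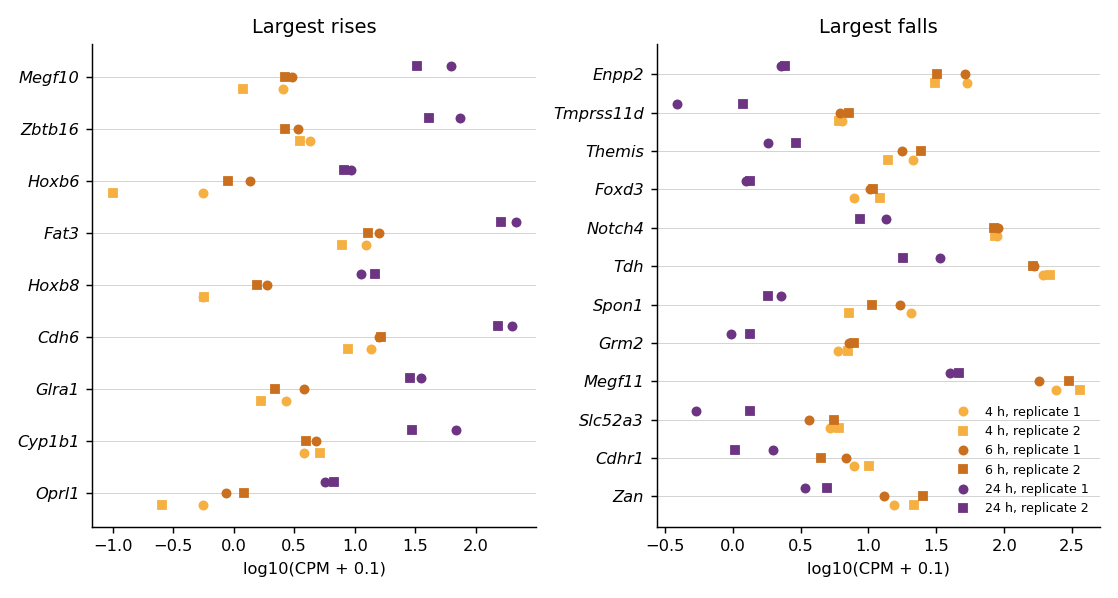
Levels (log10 of CPM + 0.1) of the named genes with the largest rises (left) and falls (right) in the 6 libraries of clone G4, coloured by hours of retinoic acid, with circles for replicate 1 and squares for replicate 2. The genes were picked for their change between these libraries, and in each both 24 h points lie on one side of the 4 early points.

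Of the genes that make, carry and degrade retinoic acid, 5 of 13 tested members rose and 0 fell (median 0.74). This and the list counts below stand beside shares of 14.9% that rose and 12.2% that fell over all genes tested. The 5 were binding and transport proteins and 1 reductase. Crabp2, which carries retinoic acid to its nuclear receptors, was at 2.31 and 3.78 CPM at 4 h, 5.84 and 4.34 at 6 h and 43.8 and 25.1 at 24 h. The change was 3.12 ± 0.39, adjusted p = 1.22e-06, with both 24 h libraries several times the highest early one. Stra6, the membrane receptor that takes up retinol, was at 15.1 and 13.7 CPM at 4 h, 25.9 and 21.2 at 6 h and 51.7 and 66.0 at 24 h, a change of 1.67 ± 0.19, adjusted p = 6.69e-08. It was already raised at 4 h and 6 h over the untreated mean of 1.02 CPM. Dhrs3, a reductase that returns retinaldehyde to retinol, rose by 1.19 ± 0.32 (adjusted p = 0.00575), from 59.8 to 97.0 CPM to 182 and 188 CPM. Rbp4, the plasma retinol carrier, rose by 2.03 ± 0.42 (adjusted p = 0.000445) to 2.49 and 3.17 CPM, and Crabp1, the second cellular carrier, by 1.09 ± 0.37 (adjusted p = 0.0276), its early and 24 h values overlapping. Cyp26b1, another degrading enzyme, stood at 17.3 and 8.82 CPM at 4 h, 21.2 and 15.3 at 6 h and 30.5 and 28.0 at 24 h; both 24 h libraries were above every early one, with a change of 0.92 ± 0.41, adjusted p = 0.0998, which missed the threshold. Rdh11, a retinol dehydrogenase, had a change of 0.19 ± 0.22. Leaving out 1 library ended the call, without 24 h replicate 1 for Crabp1 (adjusted p = 0.608), also without at least 1 other library. Another setting of the analysis also ended the call of Crabp1.

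Among receptors, corepressors and early targets, 6 of 13 tested members rose and 2 fell (median 0.27), and the receptors moved in different directions. Rarb, the receptor gene that is itself a retinoic acid target, was at 103 and 61.7 CPM at 4 h, 79.9 and 73.4 at 6 h and 185 and 184 at 24 h. Its change was 1.21 ± 0.18, adjusted p = 7.58e-06. Rarg fell over the same interval, from 144 ± 15.3 CPM (SD, n = 4) to 74.3 ± 2.56 (SD, n = 2), a change of -0.95 ± 0.17, adjusted p = 9.71e-05. Rxra, a shared partner receptor, rose by 0.88 ± 0.23 (adjusted p = 0.00419), while Rxrg, at 5.04 to 6.11 CPM early, had a change of -1.40 ± 0.34, adjusted p = 0.00257; the Rarg, Rxra and Rxrg values were picked out after they were seen. Stra8, best known as the retinoic acid-induced gene of germ cells, was at 64.1 and 63.0 CPM at 4 h, 62.2 and 87.9 at 6 h and 155 and 209.7 at 24 h, a change of 1.40 ± 0.28, adjusted p = 0.000537. Tshz1, a zinc finger gene, rose from 22.7 ± 5.97 CPM (SD, n = 4) to 144 ± 24.1 (SD, n = 2), a change of 2.67 ± 0.24 (adjusted p = 2.8e-09). Zfp703, a zinc finger corepressor, rose by 2.26 ± 0.22 and Skida1 by 1.70 ± 0.31. Nrip1, a corepressor of nuclear receptors, had passed its largest change before 4 h: it stood at 55.7 CPM untreated, 221 to 325 CPM at 4 to 6 h and 322 and 349 CPM at 24 h, a change of 0.27 ± 0.18, adjusted p = 0.292. Ncor1 was lower in both 24 h libraries without passing the test (-0.44 ± 0.17, adjusted p = 0.0519). The call was lost on leaving out 1 library, without 24 h replicate 2 for Rxra (adjusted p = 0.102) and Rxrg (adjusted p = 0.0502).

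Of the 10 Hoxb genes, 9 passed the filter on low counts and each of the 9 rose, with changes between 1.89 and 4.06 (median 2.69); Hoxb13 was too low to test. The filter on low counts drew on all 42 clone libraries, later times included, so Hox genes that are near 0 early entered through their late levels. Hoxb1, the 3'-most gene of the cluster, was at 3.39 and 2.52 CPM at 4 h, 6.48 and 4.82 at 6 h and 34.9 and 51.5 at 24 h, a change of 3.39 ± 0.30, adjusted p = 1.32e-09. Hoxb2 was at 2.16 and 1.89 CPM at 4 h, 5.21 and 2.25 at 6 h and 23.0 and 26.0 at 24 h, a change of 3.13 ± 0.30, adjusted p = 5.9e-09. In both, the 6 h libraries lay above the 4 h ones and all 4 lay far below 24 h. Hoxb3 and Hoxb4 started higher and changed by 2.58 ± 0.17 and 1.89 ± 0.22: Hoxb3 went from 7.40 to 11.1 CPM to 48.7 and 69.7 CPM and Hoxb4 from 5.67 to 10.7 CPM to 27.7 and 34.1 CPM.

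Hoxb6, Hoxb7 and Hoxb8 were low at the early times. Hoxb8 was at 0.462 and 0.472 CPM at 4 h, 1.78 and 1.45 at 6 h and 11.2 and 14.6 at 24 h, a change of 3.86 ± 0.33, adjusted p = 1.11e-09. Hoxb6 was at 0.462 and 0 CPM at 4 h, 1.27 and 0.803 at 6 h and 9.22 and 8.09 at 24 h, a change of 4.06 ± 0.45, adjusted p = 6.12e-08, from 18 reads over the 4 early libraries. Hoxb7 had 12 early reads and changed by 2.38 ± 0.56, Hoxb5 by 2.69 ± 0.32. Hoxb9, the 5'-most gene tested, had early levels of 1.65 to 2.41 CPM and rose to 10.7 and 10.9 CPM, a change of 2.42 ± 0.25, adjusted p = 8.52e-09. Hoxb5os, an antisense transcript that spans Hoxb5 and Hoxb6, rose too (3.23 ± 0.42). Whether counting used strand is not stated, but its 91 reads over the 6 libraries were fewer than the 304 of the genes it spans. Some calls ended when 1 library was left out, without 24 h replicate 2 for Hoxb7 (adjusted p = 0.0569).

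The other clusters moved the same way. In the Hoxa cluster 9 of 11 members passed the filter and each of the 9 rose (median 2.22). Hoxa3 was at 11.7 and 8.19 CPM at 4 h, 18.2 and 13.7 at 6 h and 59.1 and 63.2 at 24 h, a change of 2.27 ± 0.20, adjusted p = 5.31e-10; its counted span covers Hoxa4, Hoxa5 and Hoxa6 on the same strand, so their reads may be shared. Hoxa7 rose by 2.39 ± 0.44 and Hoxa9 by 2.52 ± 0.66, and Hoxa6 passed the test on 2 early reads and 18 at 24 h. Of 18 members of the Hoxc and Hoxd clusters 10 passed the filter, 7 of which rose and 0 fell. Hoxc4 was at 0 and 0.157 CPM at 4 h, 0.254 and 0.482 at 6 h and 5.62 and 4.05 at 24 h, and Hoxc5 at 0.154 and 0.157 CPM at 4 h, 0 and 0.321 at 6 h and 5.04 and 3.73 at 24 h. Both passed the test, on 6 and 4 reads over the 4 early libraries against 65 and 59 over the 2 at 24 h. Hoxc8 and Hoxc9 passed the test on 3 early reads each, against 17 and 9 at 24 h. With so few early reads the fitted fold changes of these genes and of Hoxa6, which the plot of the 4 clusters shows, depend on the prior count and are not read as sizes here. Hoxd1 (1.69 ± 0.77, adjusted p = 0.103) and Hoxc13 (0.27 ± 0.62, adjusted p = 0.792) did not pass. The plot of the 4 clusters gives the changes with their errors. Leaving out 1 library ended the call, without 24 h replicate 1 for Hoxc9 (adjusted p = 0.316) and without 24 h replicate 2 for Hoxa6 (adjusted p = 0.132) and Hoxa9 (adjusted p = 0.201); Hoxc9 lost it without at least 1 other library as well. The 7 rises of Hoxc and Hoxd genes became 3 of 3 with only the 6 compared libraries.

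**Figure D3:**
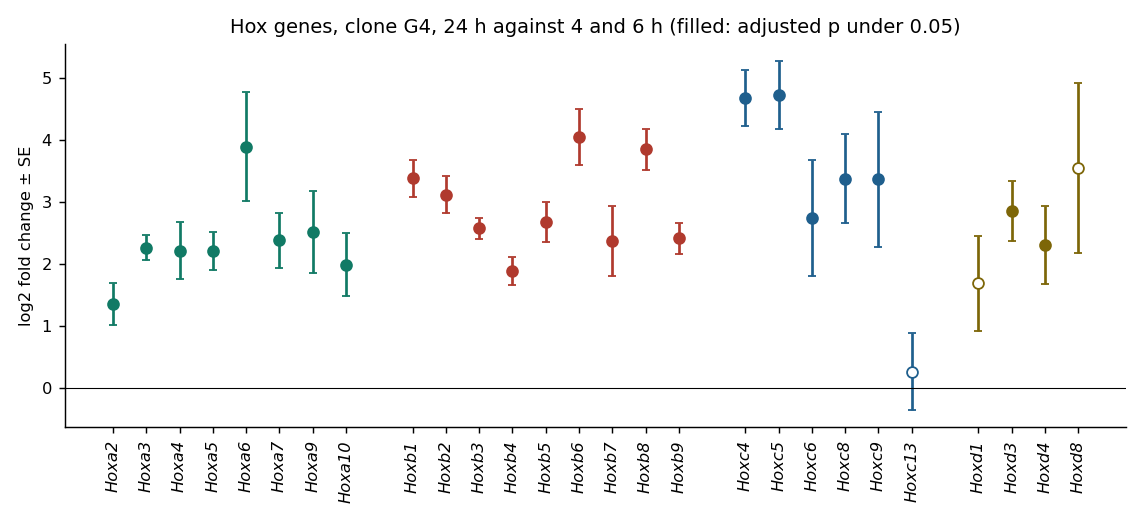
Log2 fold change with its SE of tested Hox genes in clone G4, 24 h against 4 and 6 h, ordered within each cluster by number from the 3' end; filled points passed at an adjusted p under 0.05. In the Hoxb cluster the changes lie between 1.89 and 4.06, and the widest error bars belong to genes with 3 or fewer early reads.

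Hox proteins bind DNA with partners of the Meis, Pbx and Pknox families, and of these and the caudal genes 7 of 11 tested members rose and 1 fell. Meis1 was at 65.7 and 37.9 CPM at 4 h, 84.5 and 67.0 at 6 h and 353 and 298 at 24 h, a change of 2.38 ± 0.18, adjusted p = 4.95e-11. Meis2 rose from 195 ± 61.8 CPM (SD, n = 4) to 612 ± 27.2 (SD, n = 2), a change of 1.67 ± 0.26 (adjusted p = 1.76e-05). Pknox2 rose by 2.32 ± 0.21 and its paralog Pknox1 fell by 0.68 ± 0.16, the latter singled out after its value was seen. Pbx2 did not pass (0.27 ± 0.14, adjusted p = 0.162). With 1 library left out the test was no longer passed, without 24 h replicate 1 for Pknox1 (adjusted p = 0.0831).

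Of genes that flank the Hoxb cluster on chromosome 11, 3 of 24 tested members rose and 3 fell (median -0.15), against the shares of 14.9% and 12.2% over all genes. Skap1, an adaptor of T cells whose gene lies beyond Hoxb1, went from 3.55 to 8.19 CPM to 20.7 and 33.9 CPM, a change of 2.46 ± 0.29, adjusted p = 1.04e-07. B4galnt2, a glycosyltransferase, changed by 1.53 ± 0.38 with overlapping groups, and Copz2, a coat protein subunit, by 1.26 ± 0.41. Snx11, a sorting nexin, fell by 0.63 ± 0.17, Atp5g1, an ATP synthase subunit, by 0.50 ± 0.18 and Zfp652, a zinc finger gene, by 0.33 ± 0.12; the last was named to complete the count. Some calls ended when 1 library was left out, without 24 h replicate 1 for B4galnt2 (adjusted p = 0.284), Snx11 (adjusted p = 0.113), Atp5g1 (adjusted p = 0.242) and Zfp652 (adjusted p = 0.249) and without 24 h replicate 2 for Copz2 (adjusted p = 0.192); Copz2, Atp5g1 and Zfp652 lost it without at least 1 other library as well. Copz2 and Zfp652 also lost the call under another setting of the analysis. The 3 falls of flanking genes became 0 without 24 h replicate 1 and 1 without any 1 of the other 5 libraries.

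Of genes of the naive state, 1 of 16 tested members rose and 12 fell, with a median of -1.01. Nr0b1, a nuclear receptor of naive cells, was at 45.3 and 60.8 CPM at 4 h, 43.8 and 48.4 at 6 h and 15.6 and 8.25 at 24 h, a change of -2.05 ± 0.27, adjusted p = 7.14e-07. Tdgf1, the Nodal co-receptor Cripto, was at 451 and 434 CPM at 4 h, 431 and 397 at 6 h and 135 and 142 at 24 h, a change of -1.62 ± 0.37, adjusted p = 0.00183. Fgf4, the FGF ligand made by stem cells, fell from 143 ± 15.2 CPM (SD, n = 4) to 45.7 ± 13.4 (SD, n = 2), a change of -1.64 ± 0.32, adjusted p = 0.000349, and Prdm14, a transcriptional regulator of the naive state, had a change of -1.54 ± 0.36, adjusted p = 0.00169. In these 4 genes both 24 h libraries lay well below the lowest early value. Gbx2, a homeobox gene, was the 1 list member that rose (0.85 ± 0.18, adjusted p = 0.000724). Nanog was at 90.0 and 128 CPM at 4 h, 81.8 and 96.7 at 6 h and 72.9 and 53.4 at 24 h: both 24 h libraries were lowest, but the change of -0.64 ± 0.39, adjusted p = 0.235 missed the threshold. Leaving out 1 library ended the call, without 24 h replicate 2 for Prdm14 (adjusted p = 0.0947). The 12 falls of naive genes became 3 without 24 h replicate 2 and 7 without 4 h replicate 2 or 6 h replicate 2.

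Of general pluripotency genes, 0 of 14 tested members rose and 7 fell (median -0.49). Pou5f1, which encodes Oct4, was at 214 and 239 CPM at 4 h, 214 and 209 at 6 h and 110.5 and 115 at 24 h. The change was -0.96 ± 0.17, adjusted p = 0.000105, and every 24 h library lay below every early one. Zfp296 fell by 1.03 ± 0.27, Utf1 by 0.91 ± 0.28 and L1td1 by 0.61 ± 0.20. Sox2, which is also a gene of neural progenitors, was at 110.2 and 115 CPM at 4 h, 105 and 109 at 6 h and 108 and 83.6 at 24 h, a change of -0.20 ± 0.18, adjusted p = 0.454 with overlapping groups. Its reads may be shared with Sox2ot, which overlaps it on the same strand. Dppa5a (0.29 ± 0.31, adjusted p = 0.537) and Trim71 (-0.26 ± 0.15, adjusted p = 0.204) did not pass. Among formative and primed genes 3 of 15 tested members rose and 5 fell: Fgf15 changed by 1.48 ± 0.18, Sox3 by 1.30 ± 0.31 and Sox4 by 1.16 ± 0.24, while Foxd3 and Dnmt3b fell. Nodal, a ligand of the primed state, was at 182 and 185 CPM at 4 h, 187 and 164 at 6 h and 171 and 172 at 24 h (-0.07 ± 0.32). The call was lost on leaving out 1 library, without 24 h replicate 1 for L1td1 (adjusted p = 0.184), Sox3 (adjusted p = 0.151) and Sox4 (adjusted p = 0.0861) and without 24 h replicate 2 for Zfp296 (adjusted p = 0.118) and Utf1 (adjusted p = 0.135); Utf1 and L1td1 lost it without at least 1 other library as well. Another setting of the analysis also ended the call of Utf1 and L1td1. The 0 rises of general pluripotency genes became 2 of 14 with only the 6 compared libraries. The 7 falls of general pluripotency genes became 2 without 24 h replicate 1 or 24 h replicate 2. The 3 rises of formative and primed genes became 1 without 24 h replicate 1. The 5 falls of formative and primed genes became 3 without 24 h replicate 2, 4 h replicate 2 or 6 h replicate 2 or with limma-trend and 2 without 24 h replicate 1.

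Genes of later lineages were mostly at low levels. Of neural patterning genes, 7 of 18 tested members rose and 0 fell (median 0.94). Sox1, the earliest marker of the neural plate, was at 2.93 and 2.05 CPM at 4 h, 2.41 and 2.09 at 6 h and 21.8 and 16.5 at 24 h, a change of 3.0 ± 0.31, adjusted p = 1.17e-08. Sox1ot overlaps Sox1 on the same strand, with 369 reads over the 6 libraries against 321, so reads may be shared. Irx3, a homeobox gene of the neural tube, was at 0.308 and 0.315 CPM at 4 h, 0.762 and 0.964 at 6 h and 4.90 and 2.18 at 24 h, a change of 2.74 ± 0.56, adjusted p = 0.00045. Msx1 changed by 1.70 ± 0.33, to 2.49 and 7.63 CPM. Nes (0.12 ± 0.50, adjusted p = 0.891) and Sox21 (0.79 ± 0.43, adjusted p = 0.184) did not pass. Among genes of differentiating neurons 2 of 18 tested members rose and 3 fell, near the shares of 14.9% and 12.2% over all genes. Lhx1, a LIM homeobox gene that is also on the streak and mesoderm list, changed by 3.29 ± 0.63 and Dcx, of migrating neurons, by 2.07 ± 0.74, to 1.24 and 2.02 and 0.934 and 1.15 CPM, on 5 and 7 early reads. Elavl3, an RNA-binding protein of neurons, fell from 64.2 ± 14.5 CPM (SD, n = 4) to 20.8 ± 1.56 (SD, n = 2), a change of -1.62 ± 0.23, adjusted p = 3.34e-06; Stmn2 fell by 0.98 ± 0.29 and Tubb3, named to complete the count, by 0.61 ± 0.20. With 1 library left out the test was no longer passed, without 24 h replicate 1 for Irx3 (adjusted p = 0.0626), Msx1 (adjusted p = 0.308) and Dcx (adjusted p = 0.19) and without 24 h replicate 2 for Stmn2 (adjusted p = 0.165) and Tubb3 (adjusted p = 0.231); Dcx, Stmn2 and Tubb3 lost it without at least 1 other library as well. Tubb3 also lost the call under another setting of the analysis. The 7 rises of neural patterning genes became 3 without 24 h replicate 1. The 2 rises of neuronal genes became 0 of 7 with only the 6 compared libraries. The 3 falls of neuronal genes became 1 without 24 h replicate 1 or 24 h replicate 2.

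In the list of endoderm and extra-embryonic endoderm, 7 of 22 tested members rose and 0 fell (median 0.56). For this and the further lists of this paragraph, the shares over all genes were 14.9% that rose and 12.2% that fell. Dab2, an endocytic adaptor, was at 12.9 and 11.2 CPM at 4 h, 17.7 and 15.4 at 6 h and 40.9 and 46.7 at 24 h, a change of 1.63 ± 0.18, adjusted p = 2.71e-08. Gata4 rose by 1.32 ± 0.40 and Foxa2 by 2.54 ± 0.75, the latter on 5 early reads, and Gata6 by 0.68 ± 0.26 (adjusted p = 0.0482) with overlapping groups. Lamb1, a laminin chain of basement membranes, did not pass (0.35 ± 0.16, adjusted p = 0.1). Of streak and mesoderm genes 2 of 9 tested members rose and 1 fell: Lhx1 and Meox1 (1.19 ± 0.44) rose, and the brachyury gene T changed by -1.20 ± 0.44, from 2.41 to 3.05 CPM to 1.01 and 1.40 CPM. Of trophoblast genes 3 of 8 tested members rose and 2 fell: Cdx2 (1.64 ± 0.56), Tfap2a (1.08 ± 0.41) and Gata3 (1.03 ± 0.38) rose, while Tead4 (-0.92 ± 0.19) and Tfap2c (-0.64 ± 0.24, named to complete the count) fell. Of genes of the 2-cell-like state 2 of 11 tested members rose and 1 fell: Usp17la (1.44 ± 0.38) and Usp17le (1.43 ± 0.29), near-identical copies whose reads may be split, rose and Eif1a fell by 0.63 ± 0.14. Zscan4d, the best-known gene of that state, had a change of 0.59 ± 0.29, adjusted p = 0.14. Some calls ended when 1 library was left out, without 24 h replicate 1 for Gata4 (adjusted p = 0.0802), Foxa2 (adjusted p = 0.0728), T (adjusted p = 0.295), Cdx2 (adjusted p = 0.294) and Gata3 (adjusted p = 0.871) and without 24 h replicate 2 for Gata6 (adjusted p = 0.77), Meox1 (adjusted p = 0.318), Tfap2a (adjusted p = 0.251) and Tfap2c (adjusted p = 0.706); Gata4, Gata6, Meox1, T, Cdx2, Tfap2a, Gata3 and Tfap2c lost it without at least 1 other library as well. The call of Gata6, Meox1, T, Cdx2, Tfap2a, Gata3 and Tfap2c ended under another setting of the analysis too. The 7 rises of endoderm genes became 4 without 24 h replicate 1. The 3 rises of trophoblast genes became 1 without 4 h replicate 1, 6 h replicate 1 or 6 h replicate 2 or with DESeq2, 1 of 7 with only the 14 G4 libraries, 0 of 7 with only the 6 compared libraries and 0 without 24 h replicate 1 or 4 h replicate 2. The 2 rises of 2-cell-like genes became 5 without 4 h replicate 2.

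Markers of other cells a culture could hold were summed in each library, beside the markers of pluripotent cells. The sum of 8 pluripotency markers was 1335 to 1626 CPM early and 830.2 and 1029 CPM at 24 h, with 5 of the 8 falling. Fibroblast markers summed to 68.1 to 79.0 CPM early and 132 and 220.0 CPM at 24 h. Of its 7 tested markers 3 rose: Col1a2, at 13.1 and 19.8 CPM at 4 h, 15.6 and 15.9 at 6 h and 88.3 and 49.2 at 24 h (2.09 ± 0.38, adjusted p = 0.000145), Col1a1 (1.15 ± 0.37, adjusted p = 0.0208) and Dcn (1.84 ± 0.50, adjusted p = 0.00594), while Lum and Postn were under 1 CPM in all 6 libraries. Blood and endothelial markers summed to 251 to 282 CPM early and 180.3 and 189 CPM at 24 h. Most of this sum was Pecam1, with 7584 reads over the 6 libraries against 450 of Kdr. Of the 10 markers 4 were under 1 CPM in all 6 libraries. Kdr fell by 1.31 ± 0.31 and Pecam1 by 0.67 ± 0.25, and Hbb-bs and Hba-a1 were at 0 throughout. Extra-embryonic endoderm markers rose in 4 of 7 cases, with sums of 24.7 to 36.5 CPM early and 65.1 and 80.6 CPM at 24 h, and Sox17 was under 1 CPM in all 6. Neural progenitor markers rose in 3 of 6 cases, with sums of 65.6 to 126 CPM early and 115 and 172 CPM at 24 h. Of these markers Nes, which did not pass the test, held 3115 reads over the 6 libraries, against 321 of Sox1 and 64 of Irx3. Over all genes tested, 14.9% rose and 12.2% fell. The part of such cells in the changes above was not tested. Leaving out 1 library ended the call, without 24 h replicate 1 for Col1a1 (adjusted p = 0.335) and Dcn (adjusted p = 0.153) and without 24 h replicate 2 for Kdr (adjusted p = 0.0898) and Pecam1 (adjusted p = 0.209); Col1a1 and Pecam1 lost it without at least 1 other library as well. Another setting of the analysis also ended the call of Pecam1.

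Components and targets of LIF signalling fell or did not pass: 0 of 10 tested members rose and 6 fell (median -0.60). Lifr, the LIF receptor, was at 370.4 and 384 CPM at 4 h, 375 and 356 at 6 h and 183 and 152 at 24 h, a change of -1.15 ± 0.12, adjusted p = 1.36e-08. Stat3, the factor activated by that receptor, was at 72.8 and 97.9 CPM at 4 h, 69.5 and 76.6 at 6 h and 48.7 and 42.3 at 24 h, a change of -0.79 ± 0.21, adjusted p = 0.00412, and its targets Bcl3 and Socs3 fell by 1.59 ± 0.26 and 0.77 ± 0.28. Il6st, the partner subunit of the receptor, had a change of -0.24 ± 0.12. In the FGF list 4 of 20 tested members rose and 7 fell. Fgf4 and the ERK feedback inhibitor Spry4 (-1.43 ± 0.28, from 115 to 144 CPM to 47.2 and 50.6 CPM) fell most, while Fgfr3 changed by 1.59 ± 0.40 and Fgfr2 by 0.39 ± 0.16 (adjusted p = 0.0662). The call was lost on leaving out 1 library, without 24 h replicate 1 for Fgfr3 (adjusted p = 0.153) and without 24 h replicate 2 for Stat3 (adjusted p = 0.0903) and Socs3 (adjusted p = 0.546); Socs3 lost it without at least 1 other library as well. Socs3 also lost the call under another setting of the analysis. The 4 rises of FGF genes became 2 without 24 h replicate 1. The 7 falls of FGF genes became 3 without 24 h replicate 1 and 4 without 24 h replicate 2 or 6 h replicate 2. The 6 falls of LIF genes became 3 of 10 with no low-count filter, 3 of 9 with only the 6 compared libraries and 2 without 24 h replicate 2.

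In the Nodal, activin and BMP list, 5 of 19 tested members rose and 4 fell. Lefty1, a secreted Nodal inhibitor, was at 330.4 and 251 CPM at 4 h, 255 and 187 at 6 h and 1005 and 877 at 24 h, a change of 1.89 ± 0.62, adjusted p = 0.0263; both 24 h libraries were the highest. Bmp4 was at 52.1 and 49.1 CPM at 4 h, 48.6 and 47.2 at 6 h and 14.8 and 10.6 at 24 h, a change of -1.95 ± 0.22, adjusted p = 5.17e-08, whereas Bmp2 rose by 2.10 ± 0.60 (adjusted p = 0.00956) to 1.24 and 3.89 CPM. Skil, a feedback regulator, had a change of -0.09 ± 0.15. Among Wnt genes 4 of 20 tested members rose and 3 fell (median 0.05): the ligand Wnt5b (1.37 ± 0.22, adjusted p = 1.34e-05) and the transcription factor Sp8 (1.83 ± 0.30, adjusted p = 2.1e-05) rose, and the ligand Wnt3a (-1.87 ± 0.47, adjusted p = 0.00305) and the extracellular Wnt inhibitor Notum (-1.34 ± 0.26, adjusted p = 0.000304) fell. The Wnt counts lie near the shares over all genes, 14.9% that rose and 12.2% that fell. Wnt5b, with 515 reads over the 6 libraries, overlaps Fbxl14 on the other strand, which holds 1037. Such pairs were largely counted apart, as described with the long noncoding RNAs. With 1 library left out the test was no longer passed, without 24 h replicate 1 for Lefty1 (adjusted p = 0.125) and Bmp2 (adjusted p = 0.457) and without 24 h replicate 2 for Wnt3a (adjusted p = 0.0669); Lefty1 lost it without at least 1 other library as well. The call of Lefty1 ended under another setting of the analysis too. The 3 falls of Wnt genes became 1 without 24 h replicate 2. The 5 rises of Nodal, activin and BMP genes became 2 without 24 h replicate 1 and 3 without 24 h replicate 2 or 6 h replicate 2.

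Among Notch and Hedgehog genes 6 of 21 tested members rose and 2 fell. Smo, the transducer of Hedgehog, rose by 1.23 ± 0.19, Lfng, a glycosyltransferase that modifies Notch, by 1.22 ± 0.33, and Notch3 by 1.05 ± 0.23. Ptch1, a Hedgehog receptor, was at 599 and 495 CPM at 4 h, 637 and 618 at 6 h and 1074 and 1198 at 24 h (0.96 ± 0.12, adjusted p = 6.89e-07), with both 24 h libraries above every early one; it was picked out after its values were seen. Some calls ended when 1 library was left out, without 24 h replicate 1 for Lfng (adjusted p = 0.303).

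Of genes of DNA methylation and its oxidation, 1 of 9 tested members rose and 5 fell (median -0.59). Tet1, the dioxygenase that predominates in embryonic stem cells, was at 1828 and 1974 CPM at 4 h, 1624 and 1894 at 6 h and 843 and 773 at 24 h. Its change was -1.18 ± 0.19, adjusted p = 2.32e-05, and Tet2 changed by -0.73 ± 0.24, adjusted p = 0.0239. Tet3 moved the other way, from 40.7 ± 3.65 CPM (SD, n = 4) to 74.1 ± 7.81 (SD, n = 2), a change of 0.87 ± 0.15, adjusted p = 4.2e-05. The de novo methyltransferase Dnmt3b fell from 188 ± 9.14 CPM (SD, n = 4) to 93.2 ± 6.87 (SD, n = 2), a change of -1.02 ± 0.12, adjusted p = 2.25e-07; Dnmt3a fell by 0.59 ± 0.15 and Dnmt3l by 0.67 ± 0.25, both named to complete the count. The maintenance genes Dnmt1 (-0.21 ± 0.11, adjusted p = 0.152) and Uhrf1 (-0.15 ± 0.13, adjusted p = 0.42) did not pass, though all 3 of Tet1, Dnmt1 and Uhrf1 had both 24 h libraries below the early ones. Leaving out 1 library ended the call, without 24 h replicate 1 for Tet2 (adjusted p = 0.215), Dnmt3a (adjusted p = 0.157) and Dnmt3l (adjusted p = 0.364); Tet2 and Dnmt3l lost it without at least 1 other library as well. Dnmt3l also lost the call under another setting of the analysis. The 5 falls of DNA methylation genes became 2 without 24 h replicate 1 and 3 without 24 h replicate 2, 4 h replicate 2 or 6 h replicate 2.

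Polycomb genes showed 2 rises and 5 falls of 19. This count and that of cohesin genes below stand beside 14.9% that rose and 12.2% that fell over all genes. Jarid2, a subunit that guides Polycomb repressive complex binding in stem cells, was at 2339 and 2332 CPM at 4 h, 2025 and 2521 at 6 h and 1128 and 1463 at 24 h, a change of -0.83 ± 0.19, adjusted p = 0.00112, and Phf19 had one of -0.72 ± 0.23, adjusted p = 0.0196. Bmi1 (1.03 ± 0.24, adjusted p = 0.00185) and Ring1 (0.89 ± 0.27, adjusted p = 0.0124), of the other Polycomb complex, rose, and Suz12 (-0.14 ± 0.13) and Kdm6a (-0.16 ± 0.17) did not pass. Eed, Mtf2 and Cbx6 were the remaining falls, and Cbx6 belongs to the same complex as Bmi1. Of genes of cohesin and CTCF 1 of 15 tested members rose and 3 fell: Stag2 rose by 0.45 ± 0.15, and Wapl, which releases cohesin from DNA, fell by 0.58 ± 0.13 (adjusted p = 0.00139), Esco2 by 0.74 ± 0.19 and Cdca5 by 0.44 ± 0.13. The call was lost on leaving out 1 library, without 24 h replicate 1 for Jarid2 (adjusted p = 0.0734), Stag2 (adjusted p = 0.136), Esco2 (adjusted p = 0.0568) and Cdca5 (adjusted p = 0.106) and without 24 h replicate 2 for Phf19 (adjusted p = 0.203) and Ring1 (adjusted p = 0.139); Phf19, Stag2 and Cdca5 lost it without at least 1 other library as well. The 5 falls of Polycomb genes became 1 without 24 h replicate 1 and 3 without any 1 of the other 5 libraries. The 3 falls of cohesin genes became 1 without 24 h replicate 1.

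Imprinted genes rose more often than they fell: 10 of 20 tested members rose and 1 fell (median 0.58). Mest was at 202 and 139 CPM at 4 h, 230.5 and 169 at 6 h and 1066 and 883 at 24 h, a change of 2.40 ± 0.19, adjusted p = 9.33e-11. Plagl1, a zinc finger gene that regulates other imprinted genes, was at 9.10 and 6.30 CPM at 4 h, 11.9 and 7.71 at 6 h and 50.4 and 28.5 at 24 h, a change of 2.17 ± 0.23, adjusted p = 1.87e-08. Grb10, an adaptor that restrains growth signalling, rose from 518 ± 57.4 CPM (SD, n = 4) to 1407 ± 129.5 (SD, n = 2), a change of 1.44 ± 0.14 (adjusted p = 2.12e-09), and the noncoding Airn, which overlaps Igf2r on the other strand, by 1.12 ± 0.24 (adjusted p = 0.000846). Rian (0.12 ± 0.14) and Kcnq1ot1 (-0.26 ± 0.19) did not pass. Snrpn was the 1 member that fell (-0.63 ± 0.13, adjusted p = 0.000386). Among long noncoding RNAs 3 of 10 tested members rose and 2 fell. Rmst, a neural transcript, was at 2.31 and 2.36 CPM at 4 h, 3.56 and 4.98 at 6 h and 27.2 and 28.2 at 24 h, a change of 3.13 ± 0.25, adjusted p = 1.13e-10. Miat rose by 1.63 ± 0.23 and Snhg11 by 0.62 ± 0.14; Tsix, the antisense partner of Xist, fell by 0.90 ± 0.26 and Gas5, named to complete the count, by 0.50 ± 0.12. Malat1 had a change of -0.11 ± 0.16 at an early level of 3325 to 3969 CPM. It is not stated whether counting used strand. Over the 6 libraries Tsix held 5616 reads and Xist, which it overlaps on the other strand, held 37. Kcnq1ot1 held 18080 and Kcnq1, likewise on the other strand, held 346. Genes that overlap on opposite strands were thus largely counted apart. With 1 library left out the test was no longer passed, without 24 h replicate 1 for Tsix (adjusted p = 0.232) and Gas5 (adjusted p = 0.147) and without 24 h replicate 2 for Snhg11 (adjusted p = 0.0601); Tsix lost it without at least 1 other library as well. The 10 rises of imprinted genes became 6 without 24 h replicate 1. The 2 falls of long noncoding RNAs became 0 without 24 h replicate 1.

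Of cadherins and genes of the epithelial-mesenchymal transition, 5 of 19 tested members rose and 3 fell. Cdh2, N-cadherin, was at 182 and 119.8 CPM at 4 h, 209 and 157 at 6 h and 399 and 302 at 24 h, a change of 1.08 ± 0.26, adjusted p = 0.0026. Cdh1, E-cadherin, was at 1286 and 1130.5 CPM at 4 h, 1394 and 1097 at 6 h and 849 and 681 at 24 h, a change of -0.68 ± 0.20, adjusted p = 0.00939; both cadherins were picked out after their values were seen. Cdh6 and Cdh11 (1.55 ± 0.25) rose with the transcription factors Zeb2 (1.76 ± 0.18, adjusted p = 1.31e-08) and Twist2 (1.12 ± 0.30, adjusted p = 0.00465). Some calls ended when 1 library was left out, without 24 h replicate 1 for Cdh2 (adjusted p = 0.0668) and without 24 h replicate 2 for Cdh1 (adjusted p = 0.177) and Twist2 (adjusted p = 0.079). The 3 falls of cadherin and epithelial-mesenchymal genes became 1 without 24 h replicate 2.

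Of replication and mitosis genes 2 of 28 tested members rose and 6 fell (median -0.20), against shares of 14.9% and 12.2% over all genes. The D cyclins moved apart: Ccnd2 was at 52.6 and 51.8 CPM at 4 h, 67.3 and 68.0 at 6 h and 204 and 182 at 24 h, a change of 1.70 ± 0.18, adjusted p = 1.31e-08, and Ccnd1 fell by 0.72 ± 0.19 (adjusted p = 0.00551). Ccne1, cyclin E1, fell from 125 ± 6.77 CPM (SD, n = 4) to 60.2 ± 2.43 (SD, n = 2), a change of -1.06 ± 0.14, adjusted p = 6.21e-07, and the inhibitor gene Cdkn2a rose by 0.86 ± 0.30 (adjusted p = 0.0314). Mki67, a marker of cycling cells, had a change of 0.01 ± 0.15. Of replication-dependent histone genes 1 of 18 passed, Hist1h1e (0.54 ± 0.15, adjusted p = 0.0077). Ribosomal protein genes showed 2 falls of 24, Rpl3 (-0.39 ± 0.13) and Rpl27 (-0.38 ± 0.14), and oxidative phosphorylation genes 2 falls of 20, Atp5g1 and Ndufs1 (-0.31 ± 0.11). Of glycolysis genes 1 of 17 tested members rose and 4 fell: the glucose transporter Slc2a1 rose from 1814 ± 381 CPM (SD, n = 4) to 3177 ± 1.42 (SD, n = 2) (0.81 ± 0.23, adjusted p = 0.00833), and Pdk1 (-0.70 ± 0.17, adjusted p = 0.00282), Pfkp (-0.63 ± 0.16, adjusted p = 0.00278), Gpi1 (-0.39 ± 0.15, adjusted p = 0.0454) and Hk2 (-0.37 ± 0.14, adjusted p = 0.0426, named to complete the count) fell. Leaving out 1 library ended the call, without 24 h replicate 1 for Hist1h1e (adjusted p = 0.0898), Rpl3 (adjusted p = 0.322), Rpl27 (adjusted p = 0.317), Ndufs1 (adjusted p = 0.316), Pdk1 (adjusted p = 0.0786) and Gpi1 (adjusted p = 0.389) and without 24 h replicate 2 for Ccnd1 (adjusted p = 0.137), Cdkn2a (adjusted p = 0.228), Pfkp (adjusted p = 0.0753) and Hk2 (adjusted p = 0.337); Cdkn2a, Rpl3, Rpl27, Ndufs1, Gpi1 and Hk2 lost it without at least 1 other library as well. The call of Rpl27, Ndufs1, Gpi1 and Hk2 ended under another setting of the analysis too. The 1 rise of histone genes became 3 of 18 with only the 14 G4 libraries and 5 of 18 with only the 6 compared libraries. The 6 falls of replication and mitosis genes became 2 without 24 h replicate 1 or 4 h replicate 2, 1 without 24 h replicate 2 and 3 without 6 h replicate 2. The 2 falls of ribosomal protein genes became 0 without 24 h replicate 1, 24 h replicate 2, 4 h replicate 1, 4 h replicate 2 or 6 h replicate 1. The 2 falls of oxidative phosphorylation genes became 4 of 20 with only the 6 compared libraries and 0 without any 1 of the 6 libraries. The 1 rise of glycolysis genes became 4 of 17 with only the 6 compared libraries. The 4 falls of glycolysis genes became 2 without 4 h replicate 1, 4 h replicate 2, 6 h replicate 1 or 6 h replicate 2 or with RLE scaling, 2 of 17 with no low-count filter and 1 without 24 h replicate 1 or 24 h replicate 2.

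Of p53 targets Fas rose (1.95 ± 0.40, adjusted p = 0.000471) to 1.87 and 2.80 CPM and Sesn1 fell (-0.68 ± 0.18, adjusted p = 0.00433), of 15 tested. Of integrated stress response genes 3 of 15 rose: Vldlr (1.88 ± 0.31, adjusted p = 3.25e-05), Atf5 (1.07 ± 0.27, adjusted p = 0.00354) and Asns (0.51 ± 0.17, adjusted p = 0.0212). Atf5, with 382 reads over the 6 libraries, overlaps Nup62 and Gm21948 on the other strand, which hold 10041. Genes on opposite strands were largely counted apart, as described with the long noncoding RNAs. Of aryl hydrocarbon receptor targets, Cyp1b1 rose and Nqo1 fell (-1.0 ± 0.28, adjusted p = 0.00835), while Tiparp had a change of 0.21 ± 0.22. Of immediate early genes 2 of 13 fell, Myc, from 36.2 ± 1.37 CPM (SD, n = 4) to 15.1 ± 0.612 (SD, n = 2) (-1.26 ± 0.22, adjusted p = 6.54e-05), and Ier2 (-0.74 ± 0.27, adjusted p = 0.0396). Some members differed widely between the 24 h replicates: Egr1 was at 86.0 CPM in replicate 1 and 9.49 CPM in replicate 2, on either side of the early range of 32.9 to 49.6 CPM, and Ier2 at 32.4 and 14.6 CPM. The plot of the 38 lists sets each count beside the shares over all genes, 14.9% that rose and 12.2% that fell. The members of several lists overlap. The call was lost on leaving out 1 library, without 24 h replicate 1 for Sesn1 (adjusted p = 0.152), Atf5 (adjusted p = 0.169), Asns (adjusted p = 0.65) and Nqo1 (adjusted p = 0.306) and without 24 h replicate 2 for Ier2 (adjusted p = 0.615); Asns and Ier2 lost it without at least 1 other library as well. Another setting of the analysis also ended the call of Asns and Ier2. The 0 rises of immediate early genes became 3 without 24 h replicate 2. The 2 falls of immediate early genes became 4 without 24 h replicate 1. The 3 rises of integrated stress response genes became 1 without 24 h replicate 1.

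**Figure D4:**
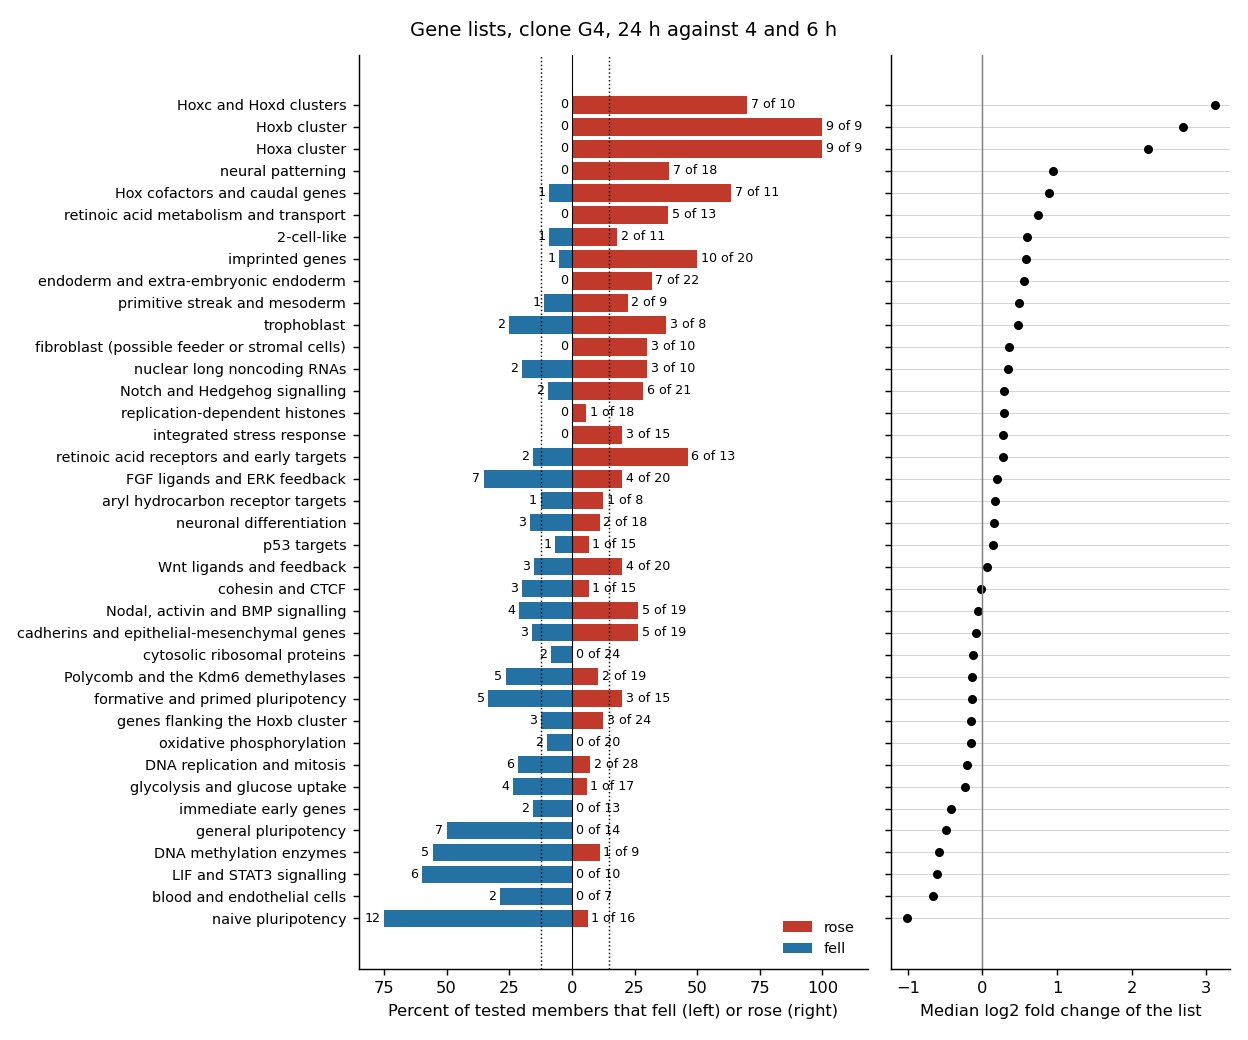
For each of the 38 gene lists in clone G4, 24 h against 4 and 6 h: percent of tested members that rose (red, to the right) or fell (blue, to the left) with the counts, beside the list's median log2 fold change (right panel). Dotted lines mark the shares over all genes tested, 14.9% and 12.2%, and the grey line their median of -0.011.

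The other times of clone G4 place the 24 h values on a course from 0 h to 74 h, as the plot of 12 genes shows. Part of the genes that fell by 24 h had first been higher at 4 to 6 h than in untreated cells. Elavl3 stood at 20.4 CPM at 0 h, 68.5 CPM at 4 h, 60.0 CPM at 6 h and 20.8 CPM at 24 h (means of 2 libraries, as are the values that follow). Megf11 went from 122 CPM at 0 h to 302 CPM at 4 h and 43.1 CPM at 24 h, and Notch4 from 41.8 to 87.1 and 10.9 CPM. Zan went from 1.92 to 18.4 and 4.07 CPM, and Grm2 from 1.66 to 6.39 and 1.05 CPM. These 5 genes had an early maximum that the 24 h libraries had left. Enpp2 and Tdh had none: their means at 0 h were 58.8 and 289 CPM, at or above those at 4 h.

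Some 24 h levels were extremes of the course. Lefty1 averaged 941 CPM at 24 h, against 201 CPM at 0 h, 121 CPM at 48 h and 5.50 CPM at 74 h. Bmp4 averaged 12.7 CPM at 24 h, against 45.7 CPM at 0 h, 27.1 CPM at 48 h and 37.8 CPM at 74 h. Spon1 was at 1.94 CPM at 24 h, with 12 CPM at 0 h and 18.2 CPM at 74 h. The 24 h point was the highest of 7 for Lefty1 and the lowest for Bmp4 and Spon1. Zbtb16, Meis1 and Hoxb8 were higher still at later times: Zbtb16 went on to 422 CPM at 48 h and 577 CPM at 74 h, Meis1 to 1190.1 and 1388 CPM, and Hoxb8 to 26.4 and 34.6 CPM. Hoxb1 was at 44.7 CPM at 48 h and 9.63 CPM at 74 h, its level at 74 h below that at 24 h. Pou5f1 went on down to 14.8 and 2.74 CPM and Tdgf1 to 8.25 and 0.682 CPM. These comparisons with other times are descriptions and were not tested.

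**Figure D5:**
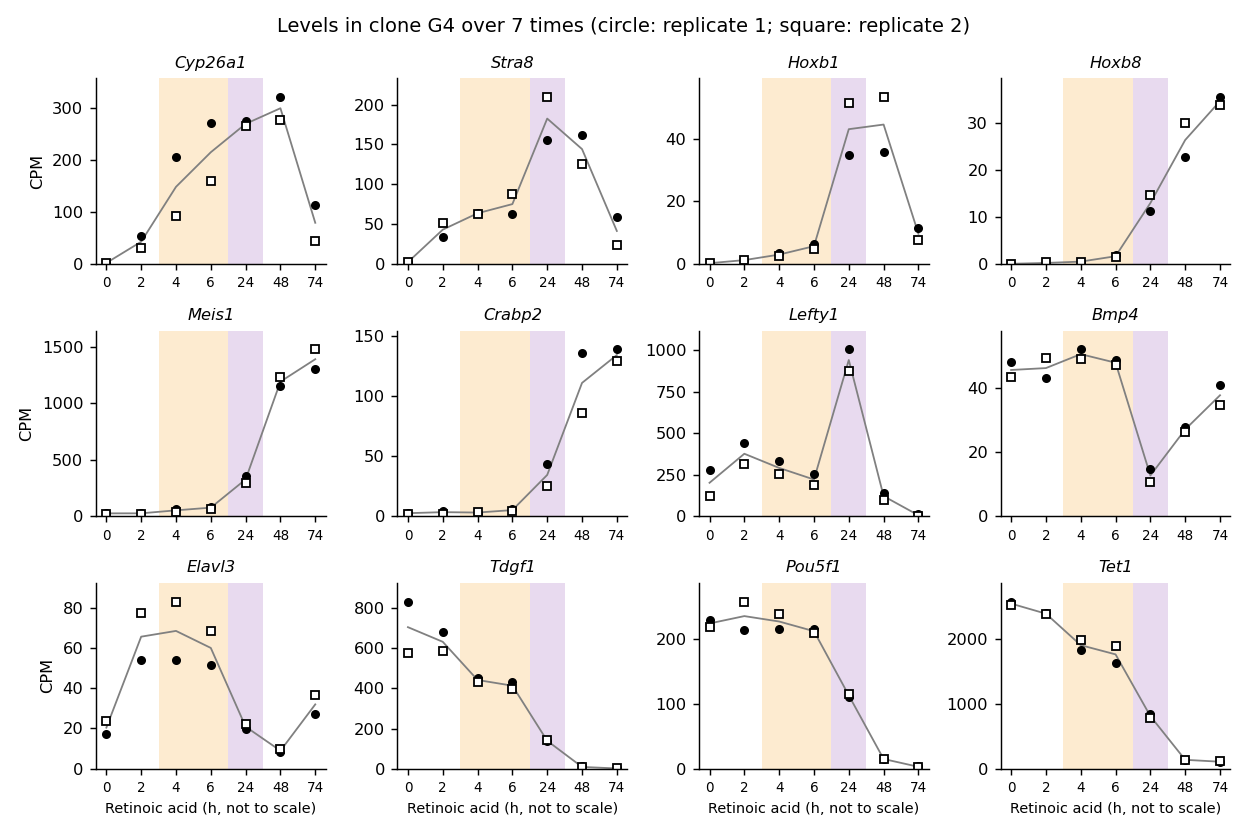
Level (CPM) of 12 genes in clone G4 over 7 times of retinoic acid (hours, not to scale), circles for replicate 1, squares for replicate 2 and a line through the means; shading marks the early times (orange) and 24 h (purple) compared here. Lefty1 is highest and Bmp4 lowest at 24 h, Elavl3 is highest at 2 to 6 h, and Hoxb8, Meis1 and Crabp2 are still rising.

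The difference between the change in G4 and the mean change in the deletion clones E3 and H12, each with its own 6 libraries, was tested for each gene. With 1 wild-type clone, the HoxTransE element and the clone cannot be told apart. Whether the change depended on the element is thus not decided by it. No gene of 15923 passed that test with edgeR (0.0%), against 2 with DESeq2, Cd44 and Ntng2, named because the count is small, and 1 with edgeR without 24 h replicate 2, Ntng2 (3.01 ± 0.51, adjusted p = 0.0291); 554 (3.48%) had an unadjusted p under 0.05. With a replicate block, described at the end, 6 genes passed the same test. For Hoxb1 the changes were 3.39 in G4, 3.29 in E3 and 4.67 in H12, and for Hoxb8 they were 3.86, 3.98 and 4.67. The difference between G4 and the mean of the deletion clones was -0.59 ± 0.42 (adjusted p = 1) for Hoxb1 and -0.15 ± 0.28 (adjusted p = 1) for Hoxb4. Between single clones, 205 genes (1.29%) passed between E3 and H12, 86 (0.54%) between G4 and H12 and none between G4 and E3 (473, 2.97%, at an unadjusted p under 0.05); these comparisons share libraries. Zbtb16 changed by 4.09 in G4, 2.72 in E3 and 1.94 in H12, Spon1 by -2.82, -3.04 and -0.39, and Enpp2 by -4.21, -4.13 and -2.47; none of these 3 passed the test of a difference between G4 and either clone.

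Many genes called in G4 were also called in libraries that share no sample with it. Of the 2371 genes that rose in G4, 1932 (81.5%) rose in E3, 67.6% of the 2858 that rose there (17.9% of all genes), and 1909 (80.5%) rose in H12, 60.9% of its 3137 (19.7%). Of the 1935 that fell, 1492 (77.1%) fell in E3, 59.8% of its 2496 (15.7%), and 1453 (75.1%) fell in H12, 57.3% of its 2536 (15.9%). In total RNA of E14 cells, counted over exons and normalised separately, 2461 of 15084 genes rose (16.3%) and 2377 fell (15.8%). Of 14751 genes tested in both, 2245 rose in G4 and 1284 of these in E14, which is 57.2% of the G4 list and 53% of the E14 list of 2421. For falls the numbers were 1135 of 1878 (60.4%) and 48.0% of 2367. With the authors' size factors the E14 split was 2806 rises and 1440 falls, with a median over all genes of 0.087 on the log2 scale. Without E14 24 h replicate 3 it was 1612 and 1599. Depth went largely with time in E14, whose 24 h libraries held 4888520 to 6495036 reads. Its 6 h replicate 4 held 5280261, and its other libraries at 4 h and 6 h held 9896087 to 20773861. Of the named largest changes, 6 of 8 tested rises and 11 of 12 falls also passed in E14.

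Changes in nuclear RNA of G4 and total RNA of E14 were set side by side for some genes, and their differences were not tested. Cyp1b1 changed by 3.51 in G4 and 0.27 in E14, and Col1a2 by 2.09 and 0.32. Pou5f1 changed by -0.96 and -0.38, and Zscan4d by 0.59 and 1.98. Hoxb1 changed by 3.39 and 3.30, Hoxb8 by 3.86 and 4.85, and Enpp2 by -4.21 and -3.19. RNA fraction, counted part of the gene, clone and culture all differ between the sets and cannot be told apart.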

How the data were processed

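Nuclear RNA-seq of clone G4 was compared between 24 h of retinoic acid (2 libraries) and 4 h and 6 h (4 libraries). The mouse build mm10, the Drosophila build dm6 and the tools STAR, Bowtie2, SAMtools and DESeq2 were used, per the submitters' processing notes, which give no roles; whether counting used strand is not given in the sources used here. The authors deposited a signal per RefSeq transcript and library, read counts divided by a size factor. In the clone table a transcript's count covers its whole span, introns included. Genes whose spans overlap on the same strand may share reads, Snrpn among them. Pfkp and Ndufs1 overlap genes on the other strand. Whole reads were recovered from the steps of the values, and 100% came out whole within 0.1 read. The transcript with most reads stood for each gene symbol. Gene reads came to 6110359 to 7748036 per library, at which 3 reads are 0.381 to 0.482 CPM. Floors cover counting error only, whereas the standard errors include the spread between libraries as the fit estimated it.

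Counts were tested with edgeR 4.0.16 in R 4.3.3: quasi-likelihood test, robust, TMM scaling, filterByExpr, 1 mean per clone and time over 42 clone libraries, Benjamini-Hochberg adjustment over all 15923 genes tested, calls at an adjusted p under 0.05. Standard errors were derived from the log2 fold change and its F statistic. Total RNA of E14 cells was fitted alone (25 libraries, 15084 genes). The fit was tested on simulated data. Alternatives were other scalings (RLE, the authors' size factors), DESeq2 1.42.0, limma 3.58.1 (limma-trend, prior count 2), other low-count filters, other sets of libraries, the longest transcript, a replicate block and leaving out each library. No alternative was added later. Replicates of a time differed by more than sampling noise (chi-square per gene 5.15 at 4 h, 7.01 at 6 h and 7.95 at 24 h).

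The members and the 38 gene lists were chosen with earlier results of these data known. Genes named were the 12 largest rises and falls among genes called against 4 h and 6 h together and each alone, at 5 CPM or more in the higher group, without Gm, Mir and Rik symbols; up to 4 called and 2 uncalled members of each list; a fixed set of Hoxb, retinoic acid and pluripotency genes; and genes called between clones, some left out for length. Libraries of SCC1-mAID cells were not analysed here. Some members of the lists are counted but not reported here by name.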

Additional observations from a re-analysis of the deposited data

Results flagged for a closer look

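Of the 588 gene symbols on the lists, not all of which were tested, 4 differed in their 24 h change between clone G4 and the deletion clone H12. Over all 15923 genes tested 86 did, 0.54% (edgeR quasi-likelihood test of the interaction, Benjamini-Hochberg adjustment over all genes tested, 2 libraries at each time). The share on the lists was thus near that over all genes. Runx1, a transcription factor of blood cells, rose in H12 by 2.10 ± 0.24 on the log2 scale and stood at 0.17 ± 0.23 in G4, a difference of -1.93 (adjusted p = 0.00447). Peg3, an imprinted zinc finger gene, rose in G4 by 0.57 ± 0.17 and had -0.58 ± 0.19 in H12, a difference of 1.16 (adjusted p = 0.031). Pou3f1, a POU factor of primed and neural cells, was at -0.14 ± 0.24 in G4 and rose by 1.46 ± 0.29 in H12, a difference of -1.60 (adjusted p = 0.0478). Pdgfrb, a growth factor receptor of mesenchymal cells, was at 0.24 ± 0.22 in G4 and fell by 1.04 ± 0.22 in H12, a difference of 1.28 (adjusted p = 0.0495). The other deletion clone, E3, gave 0.15 ± 0.23 for Runx1, 0.60 ± 0.18 for Peg3, 0.01 ± 0.25 for Pou3f1 and 0.96 ± 0.22 for Pdgfrb. Each clone is 1 line, so the deletion and the clone cannot be told apart in a comparison of G4 with H12.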

How the results depend on the processing

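The limit of this comparison is its 2 libraries at 24 h. The 4306 calls against 4 h and 6 h together came to between 4005 and 5260 under other scalings, tests, filters and sets of libraries, and to between 2449 and 3885 on leaving out 1 library. The share of calls that rose was 55.1%, 65.5% without 24 h replicate 1 and 64.8% without 24 h replicate 2. On leaving out 1 library the 3643 calls against 4 h came to between 1800 and 3462, the 2745 against 6 h to between 1328 and 2671, the 4838 in E14 cells to between 3211 and 4961, and the 213 called list members to between 131 and 191. The 0 calls between 6 h and 4 h stayed at 0 under every alternative run. For the difference between G4 and the deletion clones the 0 calls became 2 with DESeq2 (Cd44, -1.64 ± 0.35, and Ntng2, 2.53 ± 0.56, adjusted p = 0.0417 for both) and between 0 and 1 on leaving out 1 library.

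Replicate numbers are shared between times, but the labels do not say that a number marks a shared culture; deviations of same-numbered libraries correlated across genes at 0.326 (4 h and 6 h), 0.191 (4 h and 24 h) and 0.267 (6 h and 24 h). With the replicate block the step had 2793 rises and 2467 falls, and the difference between G4 and the deletion clones had 6 calls (Axl, Cd44, Csf1, Ntng2, Perp and Tagln, adjusted p = 0.0367 to 0.0429). The block also moved the falls of retinoic acid receptors and early targets from 2 to 5, the rises of endoderm genes from 7 to 11, of fibroblast genes from 3 to 5, of long noncoding RNAs from 3 to 5 and of immediate early genes from 0 to 3, and the falls of Wnt genes from 3 to 5 and of ribosomal protein genes from 2 to 4.

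Of 174 called genes checked in this way, 100 kept their call under each of the settings, up to 16, in which they were tested, 51 lost it only on leaving out a library, and 0 reversed. Among the 30 that were not called, Egr1 (0.18) was at -0.54 with limma-trend, at -0.01 with the replicate block and between -2.13 and 1.05 on leaving out 1 library. The leave-out ranges were -0.74 to 0.92 for Hoxc13, -0.20 to 0.02 for Malat1, -0.09 to 0.16 for Mki67, -0.43 to 0.55 for Nes, -0.08 to 0.00 for Nodal and -0.37 to 0.00 for Sox2. The cause was not tested. The fitted change of a gene with a few early reads depends on the prior count.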
